A study of Mus musculus with 10 samples.

Results

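Heterotrimeric G proteins and RGS proteins were examined in GUCY2Chi and GUCY2Cmed cells of the mouse small intestine. The members were the 57 protein-coding genes of the count table whose symbols are those of G protein alpha, beta or gamma subunits or of numbered RGS proteins, out of 54532 genes, taken by symbol and gene type. RNA was sequenced from 10 libraries of 20000 sorted cells each, 5 GUCY2Chi and 5 GUCY2Cmed. Every cell came from a 10-week-old, litter-matched Gucy2c-GFP mouse on the CD1/ICR background, which carries a GFP reporter driven by the Gucy2c promoter, and the labels name no treatment. Each of 5 mice, numbered 2, 7, 12, 14 and 15, was sorted into a library of high and a library of intermediate GFP, so the groups differ in reporter brightness and not in genotype, and a group is a mixture of the cell types that fall in its gate.

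A G protein alpha subunit binds GDP at rest and exchanges it for GTP when an activated receptor engages the heterotrimer, and alpha and the beta-gamma dimer then act on separate effectors. Gs alpha subunits stimulate adenylyl cyclase, Gi alpha subunits inhibit it, and Gq and G11 activate phospholipase C beta. RGS proteins speed GTP hydrolysis by alpha subunits and so end the signal; R4 members are small proteins that act mainly on Gi/o and Gq, and R7 members pair with the divergent beta subunit encoded by Gnb5. Enteroendocrine cells, the hormone-secreting cells of the gut epithelium, release their hormones in response to nutrients and transmitters that act largely through such receptors.

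Libraries held 10903958 to 15307932 reads counted on genes, and members took 0.295% to 0.432% of them. Gucy2c itself ranged from 549 to 1757 cpm in GUCY2Chi and from 323 to 483 cpm in GUCY2Cmed, where cpm are counts scaled to the library total and by edgeR's TMM factors. All 12 enteroendocrine markers were called higher in GUCY2Chi, with summed levels of 28210 to 106600 cpm against 94.81 to 265.8 cpm. The 12 enterocyte markers summed to 2618 to 3663 cpm in GUCY2Chi of mice 2, 7 and 14, to 26360 and 27540 cpm in mice 12 and 15, and to 47390 to 67290 cpm in GUCY2Cmed. Of these 12, Anpep was called lower and the others were not called. The 6 Paneth markers, none called, summed to 45610 and 29020 cpm in GUCY2Chi of mice 2 and 14. They summed to 6678 to 10370 cpm in GUCY2Chi of mice 7, 12 and 15 and to 6587 to 15410 cpm in GUCY2Cmed. The 7 goblet markers, none called, summed to 23420 cpm in GUCY2Chi of mouse 2. They summed to 3003 to 9746 cpm in the other GUCY2Chi libraries and to 4847 to 13020 cpm in GUCY2Cmed. The forebrain transcript Slc17a7 was at 1.34 cpm in GUCY2Chi of mouse 2, 1.23 cpm in GUCY2Chi of mouse 14 and 0.32 cpm in GUCY2Cmed of mouse 7, and between 20.9 and 77.0 cpm in the other 7 libraries. None of its 16-gene list was at 0 in all libraries, and that list summed to 555 to 2923 cpm in GUCY2Chi and to 86.63 to 1517 cpm in GUCY2Cmed. As these are bulk libraries, fewer cells of a type and less RNA per cell cannot be told apart.

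Summed per kilobase of gene length, the 20 RGS proteins of the RZ, R4, R7 and R12 families stood at 279 ± 121 cpm per kb in GUCY2Chi and 20.1 ± 5.6 cpm per kb in GUCY2Cmed (SD, n = 5 each). Rgs2 and Rgs4 together made up 86.8% to 97.2% of that sum in GUCY2Chi and 44.2% to 54.6% in GUCY2Cmed. With the deposited FPKM in place of counts per kilobase, the 2 shares were 83.0% to 96.9% and 42.3% to 56.9%. Among alpha subunits Gna11 held 62.9% to 69.5% of the sum in each GUCY2Cmed library and 15.6% to 46.1% in GUCY2Chi. Gnas, the ubiquitous Gs subunit, held 0.184% to 0.422% in GUCY2Chi and 0.0714% to 0.17% in GUCY2Cmed. It overlaps another entry on the opposite strand, and the part of that overlap in the alpha shares was not tested. Gnai2 held 19.4% to 49.5% of the alpha sum in GUCY2Chi against 11% to 14.2% in GUCY2Cmed. With the deposited FPKM the Gnai2 shares were 34.3% to 71.4% and 20.4% to 26.1%. Their size thus depends on the measure, while GUCY2Chi was above GUCY2Cmed in both. Gng4 held 9.19% to 24.2% of the gamma sum in GUCY2Chi against 0.0756% to 0.743% in GUCY2Cmed, and Gng12 was the leading gamma subunit by mean level in both. Beta subunits were mostly Gnb1, at 71.1% to 79.8% in GUCY2Chi and 87.4% to 91.9% in GUCY2Cmed. These shares are descriptions without a test.

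**Figure D1:**
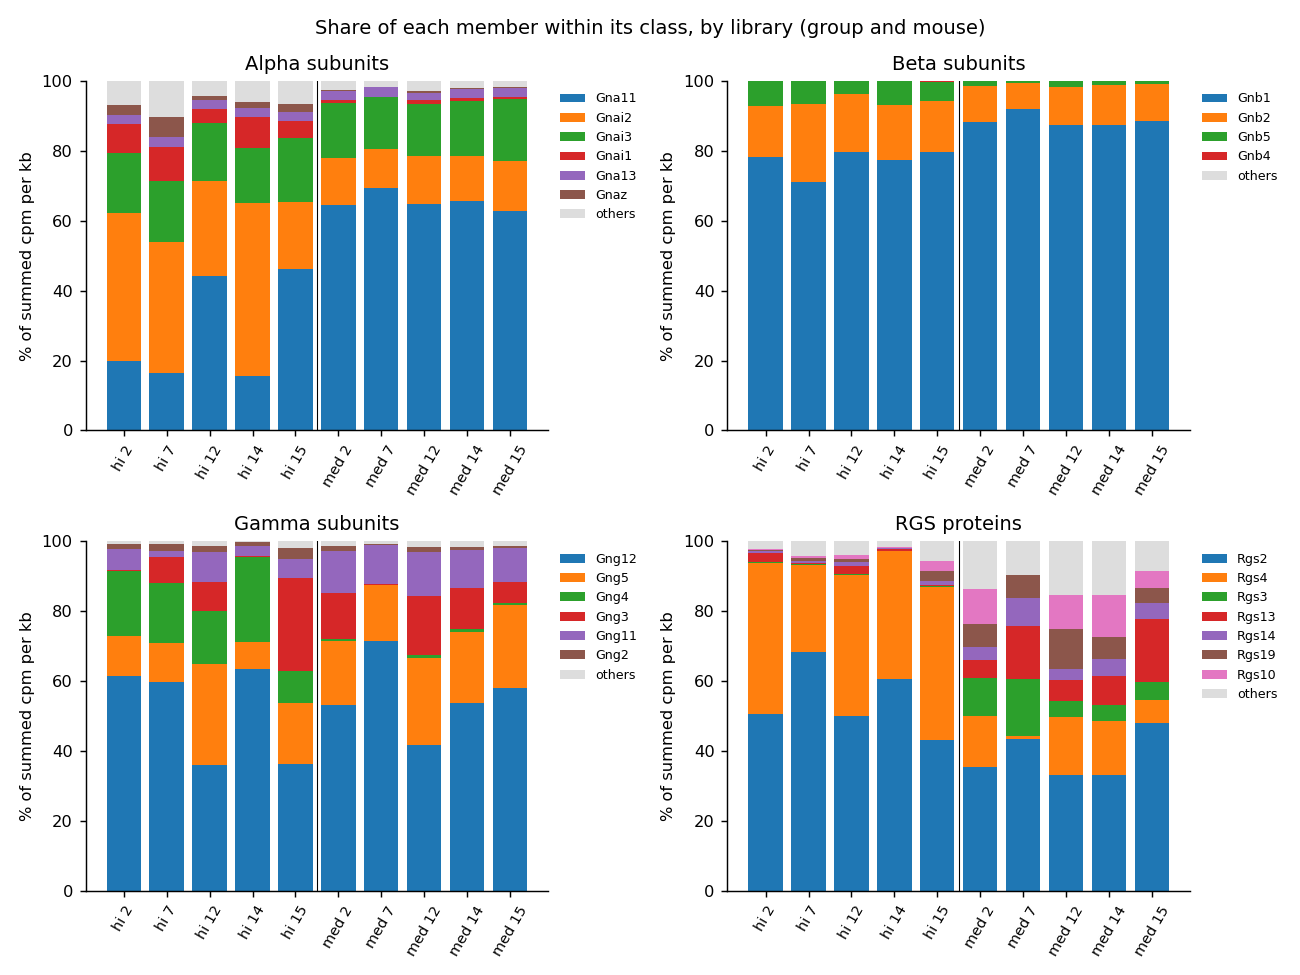
Share of each member in the summed level per kilobase of its class (%, stacked bars) in each of the 10 libraries, named by group and mouse. Rgs2 and Rgs4 make up most of the RGS bars of the 5 GUCY2Chi libraries, and Gna11 most of the alpha bars of the 5 GUCY2Cmed libraries.

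Of the 57 members, 46 passed the filter of more than 0.5 cpm in at least 3 libraries and were tested with edgeR's quasi-likelihood test, with Benjamini-Hochberg adjustment over all 15703 genes that passed and a call at an adjusted p below 0.01. A member that passed only through the group in which it is high had to differ, so the counts describe the tested members and not all 57. In GUCY2Chi, 9 members were called higher (19.6% of 46, against 13.9% of all genes tested) and 4 lower (8.7%, against 8.79%). The higher genes were Rgs4, Gng4, Rgs2, Rgs16, Gnai1, Rgs7, Gnaz, Gnb5 and Gna12, and the lower genes Gna11, Rgs3, Gnb1 and Gna13. The median log2 fold change was 0.765 over the tested members and 0.0942 over all genes tested. The 5 GUCY2Chi levels lay wholly above the 5 GUCY2Cmed levels for 13 members, a pattern of 16.7% of all genes, and wholly below for 5 members, a pattern of 13.2%. With library size alone in place of TMM factors the split was 12 higher (background 18.5%) and 1 lower (background 3.55%). The median of all genes moved to 0.388 in that fit. Relative to the median of all genes, Gna13 was then at -0.74 against -0.72 under TMM, and Rgs4 at 5.28 against 5.32.

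With the mouse as a replicate block in edgeR, 4 members were called higher, Rgs4, Gng4, Rgs2 and Gnb5 (background 8.24%), and 2 lower, Gna11 and Rgs3 (background 4.96%). With the summed forebrain list as a covariate, 14 were called higher (background 16.9%) and 3 lower (background 9.47%). That sum is not a measure of forebrain transcripts alone: its member Camk2b was itself called higher in GUCY2Chi (log2 fold change 3.11, adjusted p = 0.00214, edgeR), and Snap25, Olfm1 and Camk2b made up 85.1% and 85.9% of it in GUCY2Chi of mice 2 and 14, against 17.3% in GUCY2Cmed of mouse 7. The count of higher members fell to 5 without GUCY2Chi of mouse 7 (background 10.9%) or without GUCY2Cmed of mouse 14 (background 10.6%). The count of lower members fell to 0 without GUCY2Chi of mouse 2, GUCY2Chi of mouse 7 or GUCY2Cmed of mouse 2, to 1 without GUCY2Chi of mouse 14 or GUCY2Cmed of mouse 14 or 15, and to 2 without GUCY2Cmed of mouse 12. Over all genes, the fits without these libraries called 512 to 758 genes lower, against 1381.

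**Figure D2:**
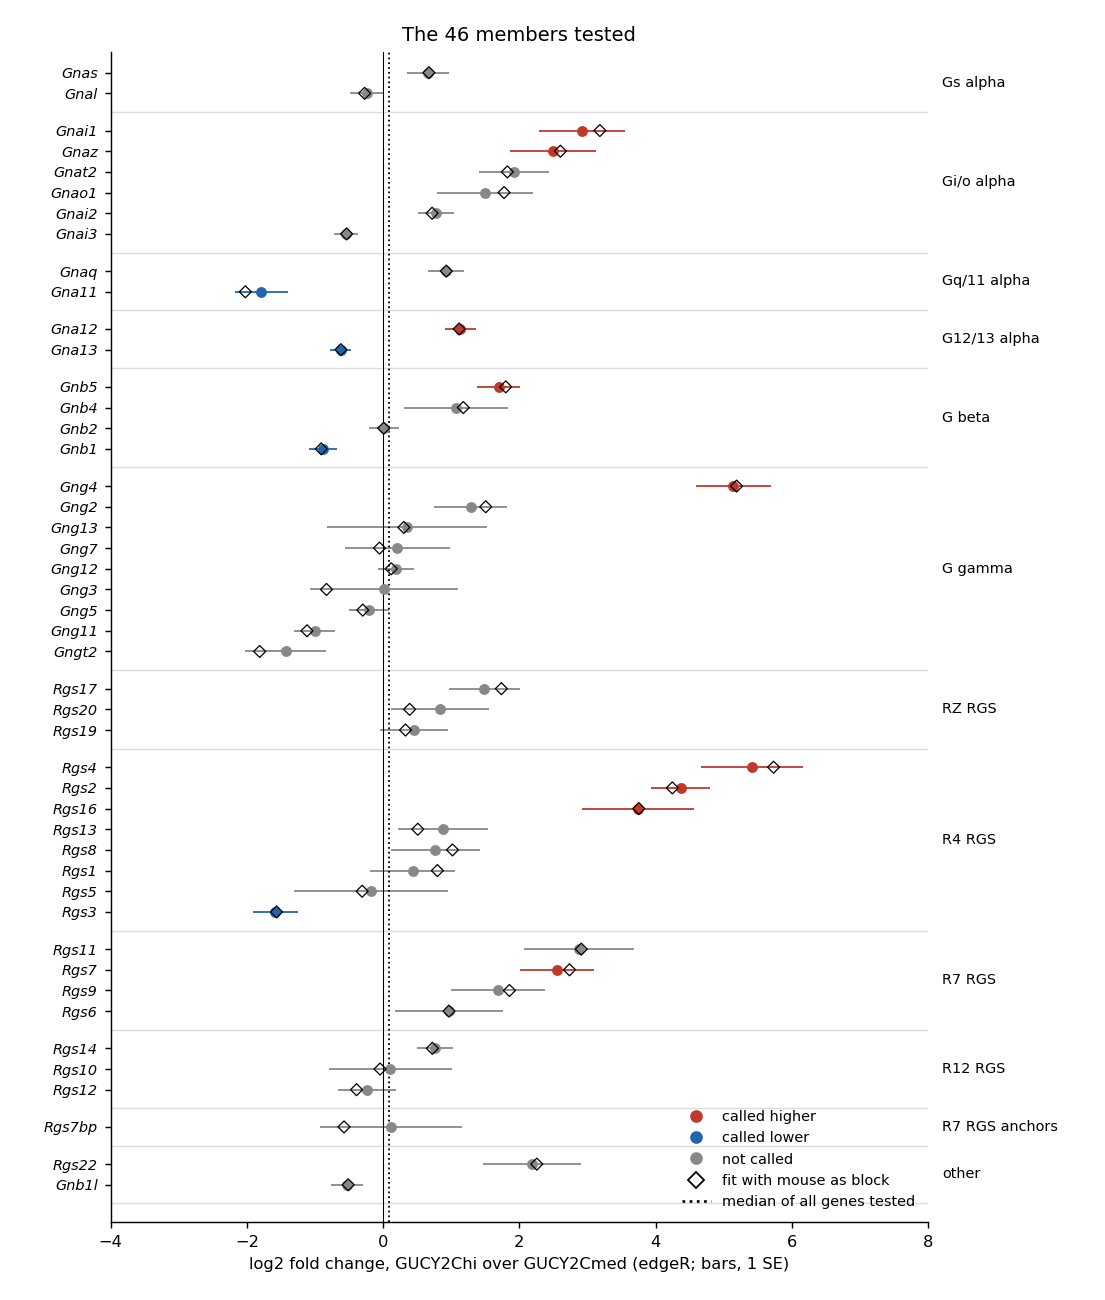
Log2 fold change of GUCY2Chi over GUCY2Cmed (horizontal axis, points with 1 SE) for the 46 tested members, grouped by family. Filled colours mark the 9 members called higher and the 4 called lower, open diamonds the fit with the mouse as replicate block, and the dotted line the median of all genes tested, 0.0942.

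The start regions of 4 of the members called higher are printed here, being the most changed beta, gamma and RGS genes, from 250 bases before to 50 after the RefSeq transcript start (GRCm38.p6). Capitals mark CAGATG or its reverse complement CATCTG, the E-box form bound by the endocrine factors Neurod1 and Neurog3.

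Gng4, chr13:13783809-13784108, plus strand: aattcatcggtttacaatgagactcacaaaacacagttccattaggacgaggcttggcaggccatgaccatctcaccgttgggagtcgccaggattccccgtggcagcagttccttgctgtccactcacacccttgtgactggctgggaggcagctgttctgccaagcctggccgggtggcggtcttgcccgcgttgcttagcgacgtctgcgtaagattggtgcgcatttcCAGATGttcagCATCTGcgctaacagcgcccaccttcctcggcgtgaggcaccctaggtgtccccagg

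Rgs4, chr1:169747593-169747892, minus strand: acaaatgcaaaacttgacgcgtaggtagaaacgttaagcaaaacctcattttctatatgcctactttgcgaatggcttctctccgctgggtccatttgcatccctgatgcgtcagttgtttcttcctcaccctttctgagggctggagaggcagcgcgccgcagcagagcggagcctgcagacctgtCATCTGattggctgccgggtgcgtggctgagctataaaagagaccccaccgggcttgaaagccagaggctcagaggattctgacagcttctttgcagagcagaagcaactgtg

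Gnb5, chr9:75306038-75306337, plus strand: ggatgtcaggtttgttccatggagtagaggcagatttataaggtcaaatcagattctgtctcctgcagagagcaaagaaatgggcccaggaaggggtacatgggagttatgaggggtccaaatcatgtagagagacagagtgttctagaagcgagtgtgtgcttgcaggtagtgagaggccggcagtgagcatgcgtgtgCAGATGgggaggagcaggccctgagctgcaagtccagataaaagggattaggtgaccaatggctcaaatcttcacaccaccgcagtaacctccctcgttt

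Rgs2, chr1:144004100-144004399, minus strand: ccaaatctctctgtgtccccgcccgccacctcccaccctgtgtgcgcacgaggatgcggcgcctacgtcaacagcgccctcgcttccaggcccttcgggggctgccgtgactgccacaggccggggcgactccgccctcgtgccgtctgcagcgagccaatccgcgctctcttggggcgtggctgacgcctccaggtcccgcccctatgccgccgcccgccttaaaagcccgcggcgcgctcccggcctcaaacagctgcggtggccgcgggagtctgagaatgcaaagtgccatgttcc

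RefSeq gives Gng4 a second start window, chr13:13784057-13784356, which held no match and is not printed. In the printed Gng4 window the first E-box began 18 bases and the second 7 bases before the start, on opposite strands. The Rgs4 match began 63 bases and the Gnb5 match 50 bases before the start, and the Rgs2 window held none. A window was found for 42 of the 57 members. Searched on both strands, this E-box was in 3 of the 8 members called higher with a window (37.5%), in 0 of 4 called lower, in 5 of 23 tested but not called (21.7%) and in 3 of 7 not tested (42.9%). The share was thus no higher in the members called higher than in the members not tested. Over all members it was 11 of 42 (26.2%), and over tested genes with a window 1627 of 11510 (14.1%). Of all 32851 windows, 17.2% held it. The full cAMP response element TGACGTCA, which is its own reverse complement, was found for 0 of the 42 members with a window, for 400 of the 11510 tested genes with one (3.48%) and in 1.79% of all windows. A match is a string of letters and was not tested as a binding site.

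The largest rise was that of an R4 RGS protein. Rgs4 (ENSMUSG00000038530, chromosome 1, 169741477 to 169747642, minus strand) is a brake on Gi/o and Gq signals that is abundant in neurons. Its level in GUCY2Chi of mice 2, 7, 12, 14 and 15 was 466, 221, 218, 495 and 198 cpm, and in GUCY2Cmed of the same mice 9.92, 0.241, 12.7, 9.91 and 4.62 cpm. The lowest GUCY2Chi library thus lay above the highest GUCY2Cmed library, and mice 2 and 14 were the highest in GUCY2Chi. The log2 fold change was 5.42 (SE 0.75, adjusted p = 0.000331, edgeR), with GUCY2Chi above GUCY2Cmed in 5 of 5 mice.

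Rgs2 (ENSMUSG00000026360, chromosome 1, 143999338 to 144004161, minus strand), which acts preferentially on Gq, had the highest level per kilobase of the RGS genes. It stood at 635, 711, 316, 966 and 228 cpm in GUCY2Chi of mice 2, 7, 12, 14 and 15. In GUCY2Cmed it stood at 28.6, 16.5, 29.4, 25.0 and 39.0 cpm. The groups did not overlap, and mice 12 and 15, whose GUCY2Chi libraries carried more enterocyte transcripts, were the lowest in GUCY2Chi. This was a log2 fold change of 4.37 (SE 0.43, adjusted p = 3.48e-05, edgeR).

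Rgs16 was a rare transcript, with 90 counts in all GUCY2Chi libraries and 5 in all GUCY2Cmed libraries. Its levels were 1.75, 1.99, 1.29, 0.463 and 0.504 cpm in GUCY2Chi and 0.187, 0.0803, 0, 0.15 and 0 cpm in GUCY2Cmed, in the same mouse order. Its log2 fold change was 3.74 (SE 0.82, adjusted p = 0.00388, edgeR), with adjusted p = 0.0162 under the replicate block and 0.0107 without GUCY2Chi of mouse 7.

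Rgs3 (ENSMUSG00000059810, chromosome 4, 62559847 to 62704001, plus strand) went the other way within the R4 family. It stood at 5.45, 5.85, 7.49, 2.78 and 4.79 cpm in GUCY2Chi and at 26.2, 18.5, 11.8, 10.4 and 12.1 cpm in GUCY2Cmed. Its log2 fold change was -1.58 (SE 0.33, adjusted p = 0.00344, edgeR). The adjusted p was 0.0117 without GUCY2Chi of mouse 2, 0.0101 without GUCY2Chi of mouse 7 and 0.0107 without GUCY2Cmed of mouse 2. Rgs1, Rgs5, Rgs8 and Rgs13 were not called, with log2 fold changes of -0.18 to 0.88, and Rgs18 and Rgs21 had no count in any library.

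R7 RGS proteins carry a GGL domain that binds the Gnb5 product. All 4 tested members had a positive log2 fold change, and Rgs7 passed the test (25.0%, against 13.9% of all genes tested). The median log2 fold change of all genes tested was 0.0942, and their share with a positive value was not counted. Rgs7 (ENSMUSG00000026527, chromosome 1, 175059087 to 175492500, minus strand) stood at 21.0, 33.9, 17.7, 24.6 and 16.3 cpm in GUCY2Chi and at 5.15, 0.321, 6.99, 4.21 and 2.65 cpm in GUCY2Cmed. The groups did not overlap, and GUCY2Cmed of mouse 7 was the lowest library. Rgs7 had a log2 fold change of 2.55 (SE 0.55, adjusted p = 0.00406, edgeR), with adjusted p = 0.0210 under the replicate block. It was 0.0114 without GUCY2Chi of mouse 7, 0.0113 without GUCY2Cmed of mouse 14 and 0.0149 without GUCY2Cmed of mouse 15.

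Rgs11 was not called, although its groups did not overlap. Its levels were 5.38, 4.34, 1.89, 0.848 and 0.882 cpm in GUCY2Chi and 0.374, 0.482, 0, 0.751 and 0.171 cpm in GUCY2Cmed, a log2 fold change of 2.88 (SE 0.81, adjusted p = 0.0148, edgeR). Rgs11 shares 57.8% of its span with Arhgdig on the opposite strand, which had 6780 counts against 224, and the part of that overlap in its value was not tested. Rgs6 and Rgs9 had log2 fold changes of 0.97 and 1.69 and were not called.

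Gnb5 (ENSMUSG00000032192, chromosome 9, 75306288 to 75345876, plus strand), the beta subunit that partners R7 RGS proteins, was called higher. It stood at 28.3, 30.8, 23.2, 34.6 and 31.8 cpm in GUCY2Chi and at 11.5, 3.13, 12.5, 10.1 and 8.56 cpm in GUCY2Cmed. GUCY2Chi varied little between mice, and GUCY2Cmed of mouse 7 was the lowest library. Gnb5 had a log2 fold change of 1.69 (SE 0.31, adjusted p = 0.00186, edgeR), and the call held without each library in turn. The membrane anchor Rgs7bp had no such shift, with a log2 fold change of 0.12 (SE 1.04, adjusted p = 0.952, edgeR). The other anchor, Rgs9bp, was not tested, with 7 counts in all.

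Gnb1 (ENSMUSG00000029064, chromosome 4, 155491361 to 155559269, plus strand), the most abundant beta subunit, was called lower. Its levels were 431, 450, 728, 537 and 647 cpm in GUCY2Chi and 1065, 886, 1010, 1034 and 1156 cpm in GUCY2Cmed. Its log2 fold change was -0.88 (SE 0.21, adjusted p = 0.00640, edgeR). The adjusted p was 0.0157 under the replicate block, and it lay between 0.0163 and 0.0267 without GUCY2Chi of mouse 2, 7 or 14 or GUCY2Cmed of mouse 2, 12, 14 or 15. Gnb2 and Gnb4 were not called, with log2 fold changes of 0.01 and 1.07, and Gnb3, of retina and taste cells, had no count.

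**Figure D3:**
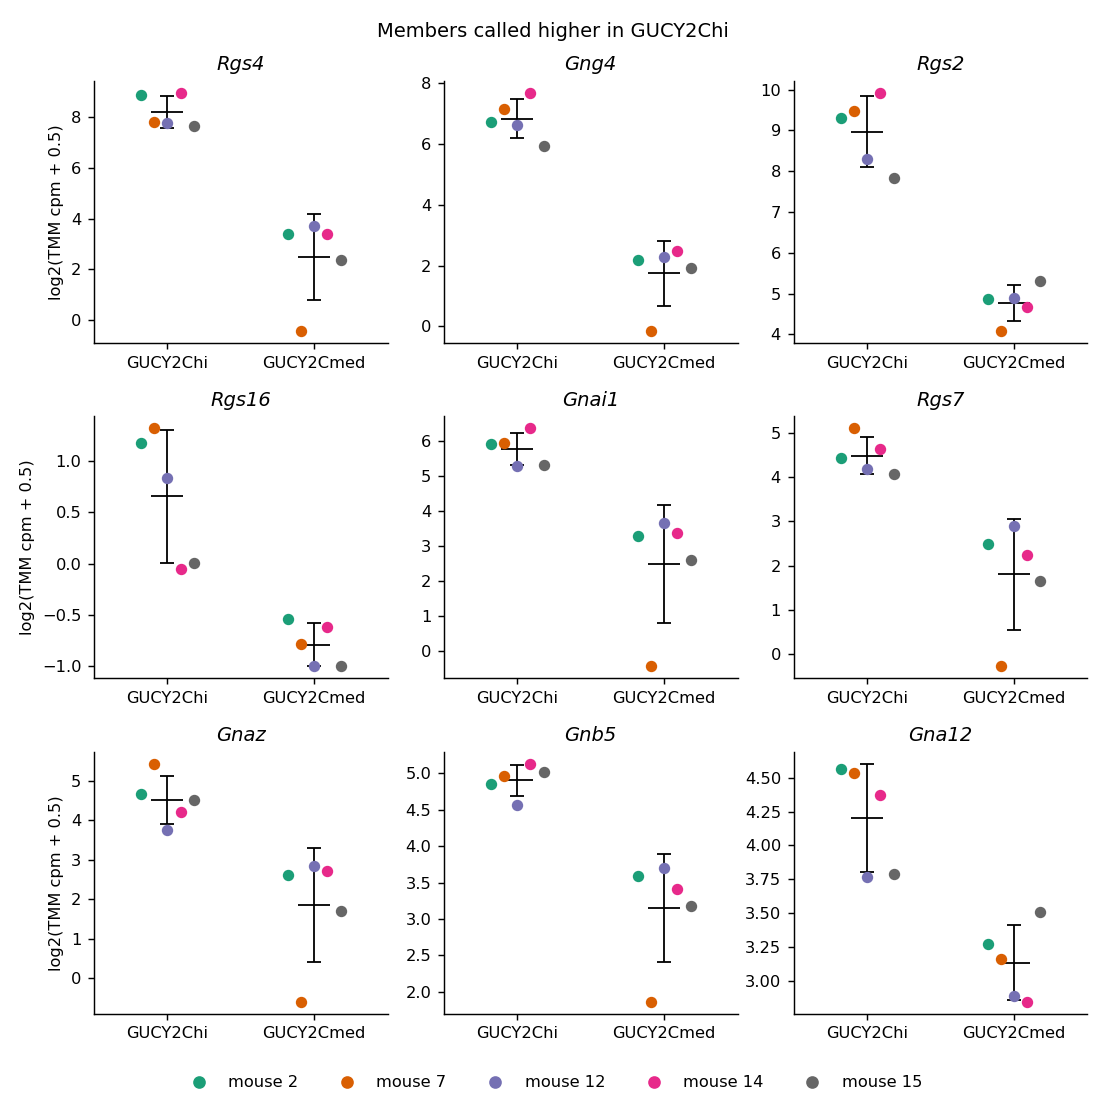
Levels of the 9 members called higher, as log2(TMM cpm + 0.5) on the vertical axes, in the GUCY2Chi and GUCY2Cmed library of each mouse (points coloured by mouse; bars, mean and SD). In each panel the 5 GUCY2Chi points lie above the 5 GUCY2Cmed points, and GUCY2Cmed of mouse 7 is the lowest point for the 7 genes other than Rgs16 and Gna12.

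Gng4 (ENSMUSG00000021303, chromosome 13, 13784059 to 13827896, plus strand), a gamma subunit known mainly from brain and endocrine tissue, was the gamma subunit called higher. It stood at 104, 140, 98.2, 202 and 60.6 cpm in GUCY2Chi and at 4.03, 0.401, 4.39, 5.03 and 3.25 cpm in GUCY2Cmed. The GUCY2Chi mean was 35.4 times the GUCY2Cmed mean, and the highest GUCY2Cmed library stayed far below the lowest GUCY2Chi library. The log2 fold change was 5.14 (SE 0.55, adjusted p = 6.29e-05, edgeR), and the call held without each library in turn.

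Gng12, the leading gamma subunit by level per kilobase, was not called. It stood at 490, 689, 334, 751 and 339 cpm in GUCY2Chi and at 435, 537, 348, 522 and 447 cpm in GUCY2Cmed, a log2 fold change of 0.19 (SE 0.27, adjusted p = 0.638, edgeR). The other 7 tested gamma subunits, Gng2, Gng3, Gng5, Gng7, Gng11, Gng13 and Gngt2, had log2 fold changes of -1.43 to 1.28. Gng13, the gamma subunit of taste and tuft cells, stayed at or below 1.07 cpm in all libraries. Gng8, Gng10 and Gngt1 were not tested. Gng10 had 29 counts in all, and 99.8% of its span lies within Gm20503, another protein-coding entry on the same strand with no count.

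Of the 6 tested Gi/o alpha subunits, 2 were called higher (33.3%, against 13.9% of all genes tested) and none lower (background 8.79%). Gnai1 (ENSMUSG00000057614, chromosome 5, 18265135 to 18360355, minus strand), an inhibitory alpha subunit, stood at 59.7, 61.6, 38.7, 82.4 and 39.7 cpm in GUCY2Chi and at 9.27, 0.241, 12.2, 9.91 and 5.65 cpm in GUCY2Cmed. Gnai1 had a log2 fold change of 2.92 (SE 0.63, adjusted p = 0.00424, edgeR). The adjusted p was 0.0169 under the replicate block, and between 0.0102 and 0.0153 without GUCY2Chi of mouse 7 or 14 or GUCY2Cmed of mouse 2, 14 or 15.

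Gnaz (ENSMUSG00000040009, chromosome 10, 74967177 to 75016907, plus strand), a pertussis toxin-insensitive member of the Gi family, stood at 24.7, 42.5, 13, 18 and 22.2 cpm in GUCY2Chi. In GUCY2Cmed it stood at 5.62, 0.161, 6.70, 6.08 and 2.74 cpm. Gnaz had a log2 fold change of 2.50 (SE 0.63, adjusted p = 0.00931, edgeR), with adjusted p = 0.0506 under the replicate block. This call was close to the threshold: leaving out single libraries, it was kept without GUCY2Cmed of mouse 7, and the adjusted p ranged up to 0.0301 without each of the other 9. The whole Gnaz span lies in Rsph14 on the opposite strand, which had 13 counts in all against 2100.

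Gnai2, the Gi/o subunit with the highest level per kilobase, stood at 373, 286, 301, 544 and 198 cpm in GUCY2Chi and at 204, 154, 190, 196 and 250 cpm in GUCY2Cmed. It was not called (log2 fold change 0.78, SE 0.26, adjusted p = 0.0327, edgeR), and GUCY2Chi of mouse 15 lay among the GUCY2Cmed libraries. Gnai3, Gnao1 and Gnat2 had log2 fold changes of -0.54, 1.5 and 1.92 and were not called. Gnat1 and the taste and tuft cell subunit Gnat3 were not tested, with 9 and 12 counts in all. The 12 tuft cell markers summed to 45.34 to 91.59 cpm in GUCY2Chi and 22.84 to 29.66 cpm in GUCY2Cmed. Of the 11 tested, Sh2d6 was called higher and Ltc4s lower, and Hpgds alone, not called, ranged from 2.14 to 58.6 cpm in GUCY2Chi. Dclk1, also not called, made up 35.0 of the 45.34 cpm in GUCY2Chi of mouse 15 and 20.1 of the 28.67 cpm in GUCY2Cmed of mouse 12. It stood at 2.62 and 3.78 cpm in GUCY2Chi of mice 2 and 14 and at 2.09 cpm in GUCY2Cmed of mouse 7, the libraries low in Slc17a7. What these sums owe to tuft cells was not tested.

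Gna11 (ENSMUSG00000034781, chromosome 10, 81528724 to 81545190, minus strand), the G11 alpha subunit, had the largest fall of the members called. It stood at 189, 135, 530, 187 and 512 cpm in GUCY2Chi and at 1053, 1059, 957, 1086 and 1199 cpm in GUCY2Cmed. The GUCY2Chi libraries of mice 12 and 15 lay well above the other 3 and below all GUCY2Cmed libraries. They are also the GUCY2Chi libraries with the enterocyte sums of 26360 and 27540 cpm. The log2 fold change was -1.79 (SE 0.39, adjusted p = 0.00436, edgeR) and -2.63 without these libraries. The call was kept without GUCY2Chi of mouse 12 or 15 or GUCY2Cmed of mouse 7, and the adjusted p was 0.0104 to 0.0166 without each of the other 7. Gnaq, its near relative, had a log2 fold change of 0.93 and was not called (adjusted p = 0.0159, edgeR). Gna14 and Gna15 were not tested, and Gna15 had 22 counts in GUCY2Chi and 0 in GUCY2Cmed.

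The 2 subunits of the G12/13 class were called in opposite directions. Gna12 (ENSMUSG00000000149, chromosome 5, 140758408 to 140830431, minus strand) stood at 23.1, 22.7, 13.1, 20.2 and 13.3 cpm in GUCY2Chi and at 9.17, 8.43, 6.91, 6.68 and 10.9 cpm in GUCY2Cmed. Its log2 fold change was 1.14 (SE 0.23, adjusted p = 0.00333, edgeR), with adjusted p = 0.0133 under the replicate block and 0.0106 without GUCY2Cmed of mouse 14. Gna13 (ENSMUSG00000020611, chromosome 11, 109362831 to 109401369, plus strand) stood at 39.3, 36.1, 44.1, 50.5 and 45.9 cpm in GUCY2Chi and at 68.6, 71.8, 51.6, 62.3 and 78.1 cpm in GUCY2Cmed. Its log2 fold change was -0.62 (SE 0.16, adjusted p = 0.00888, edgeR), with adjusted p = 0.0282 under the replicate block. Leaving out single libraries, the Gna13 call was kept without GUCY2Cmed of mouse 12, and the adjusted p ranged up to 0.0325 without each of the other 9.

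**Figure D4:**
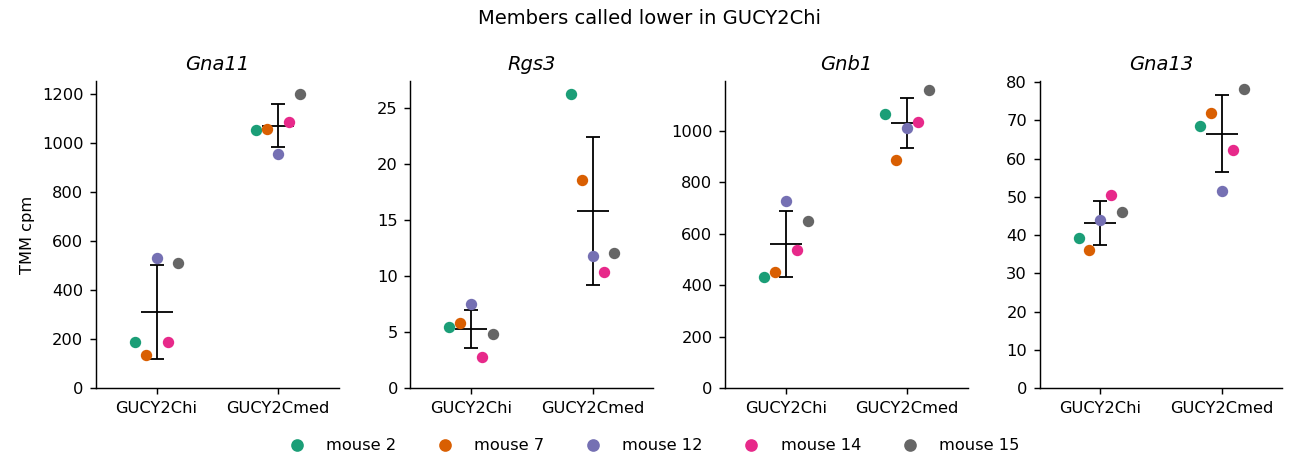
Levels in TMM cpm (vertical axes, from 0) of the 4 members called lower in the GUCY2Chi and GUCY2Cmed library of each mouse (points coloured by mouse; bars, mean and SD). For Gna11 the GUCY2Chi libraries of mice 12 and 15, at 530 and 512 cpm, stand apart from the other 3 at 135 to 189 cpm.

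Neither Gs alpha gene was called. Gnal, the olfactory form, stood at 6.39, 7.24, 8.33, 6.40 and 13.2 cpm in GUCY2Chi and at 11.9, 8.99, 9.80, 7.21 and 11.1 cpm in GUCY2Cmed (log2 fold change -0.24, SE 0.25, adjusted p = 0.509, edgeR). Gnal had the higher level per kilobase in the counts, and Gnas in the deposited FPKM. Gnas, the ubiquitous form, had between 2.97 and 11.3 cpm per library and a log2 fold change of 0.66. It overlaps Gm20721, a protein-coding entry on the opposite strand that covers 26.3% of its span and has no count, and the part of that overlap in the Gnas counts was not tested. Within the Gnal span lie part or all of Chmp1b, on the same strand with 12203 counts against 1219 for Gnal, and Mppe1, on the opposite strand with 3971, and their part in the Gnal counts was not tested either.

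The RZ and R12 RGS families held no called member. Rgs19, first of the RZ family by level per kilobase, stood at 2.02, 4.28, 4.31, 1.93 and 9.51 cpm in GUCY2Chi and at 3.28, 1.53, 6.12, 3.00 and 2.14 cpm in GUCY2Cmed, a log2 fold change of 0.46. Rgs17 and Rgs20 had log2 fold changes of 1.48 and 0.84. The R12 members Rgs10, Rgs12 and Rgs14 had log2 fold changes of 0.11, -0.23 and 0.76. Outside the families, Rgs22 had a log2 fold change of 2.18 without a call (SE 0.72, adjusted p = 0.0276, edgeR), from 53 counts in GUCY2Chi and 10 in GUCY2Cmed, and Gnb1l had one of -0.53.

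Members differed in how they varied with Slc17a7, and the genes named for this pattern were chosen after their values were seen. Rgs7bp stood at 0.740, 21.1, 20.1, 2.16 and 64.1 cpm in GUCY2Chi and at 25.4, 0.401, 34.9, 25.8 and 13.5 cpm in GUCY2Cmed. Its 3 low libraries were those low in Slc17a7, GUCY2Chi of mice 2 and 14 and GUCY2Cmed of mouse 7. Gng3 followed the same libraries, at 1.28 and 0.77 cpm in GUCY2Chi of mice 2 and 14 and 0.96 cpm in GUCY2Cmed of mouse 7, against 16.5 to 89.1 cpm elsewhere. Gng3 shares 76.8% of its span with Bscl2 on the opposite strand, which had 7713 counts against 4215. The part of that overlap in the Gng3 values was not tested. Rgs10, first of the R12 family by level per kilobase, stood at 0.538, 3.62, 3.18, 0.617 and 7.12 cpm in GUCY2Chi and at 3.74, 0, 4.18, 4.28 and 1.80 cpm in GUCY2Cmed. With the forebrain list as a covariate the log2 fold changes of Rgs7bp, Gng3 and Rgs10 were -1.40, -1.59 and -0.79 (edgeR). These genes were chosen for following Slc17a7, a gene of that list, so no test is given for them. Snap25, Olfm1 and Camk2b made up 85.1% and 85.9% of the list sum in GUCY2Chi of mice 2 and 14. The part of this in the negative values was not tested.

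Other members were low in GUCY2Cmed of mouse 7 but not in GUCY2Chi of mice 2 and 14. Gnao1, the Go alpha subunit of neurons and endocrine cells, stood at 42.4, 66.9, 31.8, 39.8 and 54.7 cpm in GUCY2Chi and at 22.7, 0.16, 26.2, 22.2 and 11.9 cpm in GUCY2Cmed. It was not called (log2 fold change 1.5, SE 0.70, adjusted p = 0.114, edgeR), although the groups did not overlap. Rgs17 and Gng2 had the same form, at 0.48 and 0.64 cpm in GUCY2Cmed of mouse 7 and at 13.4 to 22.8 and 11.3 to 25.4 cpm in GUCY2Chi. With the covariate, Gnat2, Gnaq, Gng2, Rgs11 and Rgs17 joined the 9 genes called higher, and Gnao1 did not (adjusted p = 0.0228, edgeR).

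**Figure D5:**
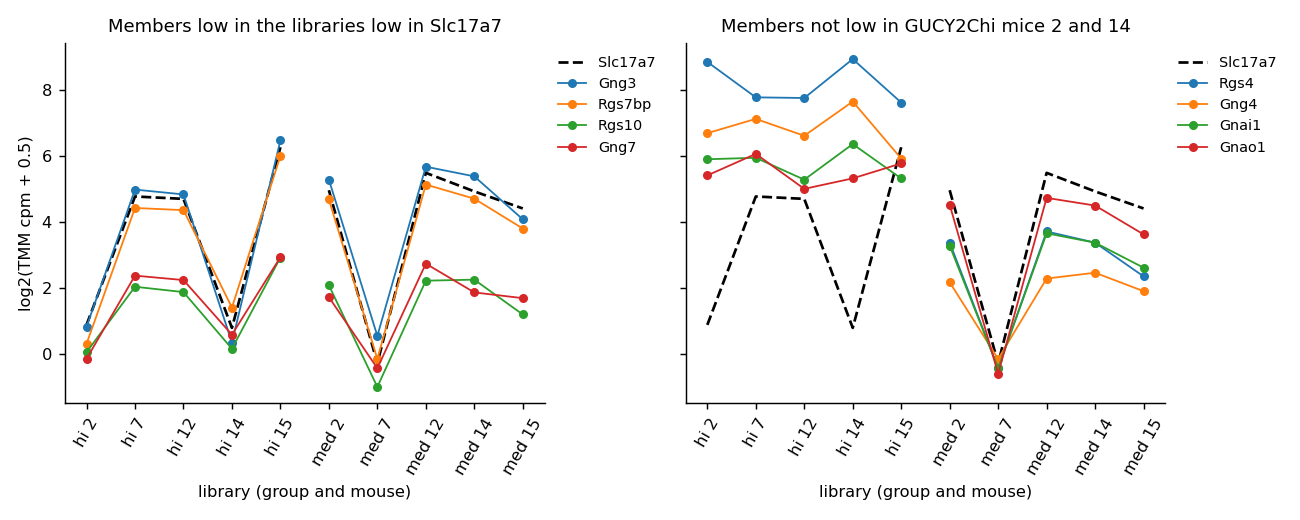
Levels, as log2(TMM cpm + 0.5), of Slc17a7 (dashed) and of 4 members in each panel across the 10 libraries, named by group and mouse. Gng3, Rgs7bp, Rgs10 and Gng7 are low where Slc17a7 is low, in hi 2, hi 14 and med 7, whereas Rgs4, Gng4, Gnai1 and Gnao1 are low in med 7 and not in hi 2 and hi 14.

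In the 3 libraries with Slc17a7 under 2 cpm, GUCY2Chi of mice 2 and 14 and GUCY2Cmed of mouse 7, the differences of several members were wider. Rgs4 was at 466 and 495 against 0.241 cpm there, Gng4 at 104 and 202 against 0.401 cpm, Gnai1 at 59.7 and 82.4 against 0.241 cpm, and Gnao1 at 42.4 and 39.8 against 0.16 cpm. GUCY2Cmed of mouse 7 was the lowest library for each of these genes, so choosing it fixes a wide difference, and with a single GUCY2Cmed library no test is given here. The same 3 libraries had the lowest forebrain list sums of their groups, at 555.0 and 589.3 cpm in GUCY2Chi and 86.63 cpm in GUCY2Cmed. The part of such transcripts in the other GUCY2Cmed levels was not tested. GUCY2Cmed of mouse 7 also had the lowest enteroendocrine marker sum of its group, at 94.81 cpm. GUCY2Chi of mice 2 and 14 had the highest Paneth marker sums of their group, at 45610 and 29020 cpm. The part of these in the differences was not tested either.

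Genes that act next to G proteins were taken from a list of 48, of which 42 were tested. In GUCY2Chi 11 were called higher (26.2%, background 13.9%) and 3 lower (7.14%, background 8.79%), with a median log2 fold change of 0.375. With the replicate block 6 were called higher (background 8.24%) and 3 lower (background 4.96%). The effectors moved in both directions.

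Among adenylyl cyclases, Adcy2, which is stimulated by beta-gamma dimers together with Gs, ranged from 42.1 to 145 cpm in GUCY2Chi (median library 96.5 cpm) and from 0.241 to 4.32 cpm in GUCY2Cmed. Its log2 fold change was 5.45 (SE 0.60, adjusted p = 6.91e-05, edgeR). Adcy8, a calcium-stimulated cyclase, ranged from 3.59 to 18 cpm against 0.526 to 1.88 cpm, a log2 fold change of 3.23 (SE 0.49, adjusted p = 0.000649, edgeR; 0.0112 under the replicate block). The other 6 tested cyclases were not called.

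Phospholipase C beta enzymes, the targets of Gq and G11, were split. Plcb4 ranged from 5.60 to 30.9 cpm in GUCY2Chi and from 0.749 to 1.15 cpm in GUCY2Cmed, a log2 fold change of 4.07 (SE 0.46, adjusted p = 9.12e-05, edgeR). Plcb3 ranged from 18.1 to 53.1 cpm in GUCY2Chi and from 98.3 to 286 cpm in GUCY2Cmed, a log2 fold change of -2.35 (SE 0.35, adjusted p = 0.000510, edgeR). Plcb3 and Gna11 were thus both called lower in GUCY2Chi, and a link between them was not tested.

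Of the potassium channels opened by beta-gamma dimers, Kcnj5 had 691 counts in GUCY2Chi, between 2.33 and 16.8 cpm per library, and none in GUCY2Cmed. Against the level of 3 counts per GUCY2Cmed library it was at least 39.3-fold higher (adjusted p = 0.000392, edgeR). Kcnj3 ranged from 9.70 to 20.3 cpm against 0.241 to 4.47 cpm, a log2 fold change of 2.30 (adjusted p = 0.00750, edgeR; 0.0137 under the replicate block). The Kcnj3 call held without GUCY2Chi of mouse 15 or GUCY2Cmed of mouse 7, and the adjusted p was 0.0100 to 0.0232 without each of the other 8 libraries.

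Receptor kinases and arrestins, which switch receptors off, gave 3 higher calls among 7 (42.9%, against 13.9% of all genes tested). Grk3 had a log2 fold change of 1.87 (5.30 to 12.3 against 1.54 to 3.6 cpm, adjusted p = 0.00108, edgeR). Grk5 had one of 2.48 (0.819 to 3.31 against 0.225 to 0.562 cpm, adjusted p = 0.00296, edgeR; 0.0168 under the replicate block). Arrb2, a beta-arrestin gene, had one of 1.17 (5.45 to 9.59 against 1.93 to 4.12 cpm, adjusted p = 0.00699 by edgeR and 0.0350 under the replicate block). The Arrb2 call held without GUCY2Chi of mouse 2 or GUCY2Cmed of mouse 2, with adjusted p of 0.0102 to 0.0211 without each of the other 8 libraries. Arrb1, the other beta-arrestin gene, was not called and went the other way, at 3.77 to 12.9 against 6.58 to 22.4 cpm. GUCY2Chi was below GUCY2Cmed in 5 of 5 mice. The Arrb1 log2 fold change was -1.13 (adjusted p = 0.0369 by edgeR and 0.00204 with the forebrain covariate).

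Ric8b, a chaperone of Gs-class alpha subunits, and Gpsm1, which binds GDP-bound Gi, were called higher. Their log2 fold changes were 1.44 and 2.71 (adjusted p = 0.000736 and 0.000824, edgeR, and 0.00488 and 0.0104 under the replicate block). Gpsm2, the relative of Gpsm1 that acts in spindle orientation, was called lower, at 14.6 to 29.1 against 37.3 to 80.7 cpm, a log2 fold change of -1.53 (adjusted p = 0.00131, edgeR). Pik3r5, the regulatory subunit through which beta-gamma acts on PI3 kinase gamma, had a log2 fold change of 2.62, and the RGS-domain sorting nexin Snx25 one of -1.48 (adjusted p = 0.00219 and 0.00149, edgeR). The 6 most abundant genes of the list that were not called, Pdcl, Grk2, Ric8a, Grk6, Axin1 and Snx13, had log2 fold changes of -0.39 to 0.35.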

How the data were processed

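RNA of sorted small intestinal cells was measured in 10 libraries, 5 GUCY2Chi and 5 GUCY2Cmed, grouped and numbered by mouse from the sample labels. The read counts per gene, as deposited, come from the company that sequenced the libraries and mapped their reads with STAR. The deposited FPKM values are the provider's and served only to check the order and shares of members within a class. The submitters' processing notes name limma 3.40.6 and edgeR 3.26.8. The deposited fold changes, p-values and 10 columns of normalized values were not used. The labels name mm9, but the table's positions overlapped the RefSeq gene of the same symbol in GRCm38.p6 for 57 of 57 members and the NCBIM37 gene for 6 of 57, so positions are given as GRCm38. Strand use in counting is not given in the sources used here. Reads of a gene and of an overlapping or near-identical copy may not be told apart.

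All fits were run under R 4.3.3, with DESeq2 1.42.0, limma 3.58.1 and edgeR 4.0.16. Exact tests used scipy 1.17.1 and figures matplotlib 3.10.9 (Python 3.11.15). Genes above 0.5 cpm in at least 3 libraries were kept (15703 of 54532). The comparison of the groups was the quasi-likelihood test of edgeR after TMM scaling, with no term for the mouse, Benjamini-Hochberg adjustment over all genes kept and a call below 0.01. The SE is the log2 fold change divided by the square root of F. For each named member whose groups did not overlap, the exact two-sided permutation test on mean log2(cpm + 0.5) gives 0.00794, the smallest p that 252 arrangements allow. A level of 3 counts per library was used as the floor for a group at 0, and it covers counting error only. The script was tested on simulated data. The same mouse gave both libraries of a number, so the mouse was also fitted as a replicate block. Same-numbered libraries had correlations of -0.243 to 0.272 between their deviations from the group means. Those of differently numbered libraries ran from -0.51 to 0.532, so same-numbered libraries did not stand out. Named genes are the members called, the member with the highest level per kilobase in each family, members not called with a log2 fold change of at least 2 in size, the listed neighbours called and the 6 most abundant of those not called. The members and the lists were chosen with earlier results of these data known.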

Additional observations from a re-analysis of the deposited data

Results flagged for a closer look

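In 82 groups of 5 libraries, the 2 groups of each of 41 named genes, 6 had a library far from the other 4 on the log2(cpm + 0.5) scale by Dixon's criterion, which chance alone meets in about 5% of groups. Of these, 4 were the GUCY2Cmed library of mouse 7, which was low for Gnai1 (0.241 cpm, next lowest 5.65 cpm), Gnb5 (3.13 cpm, next lowest 8.56 cpm), Gng4 (0.401 cpm, next lowest 3.25 cpm) and Rgs7bp (0.401 cpm, next lowest 13.5 cpm). The same library had 0.32 cpm of Slc17a7, the lowest of the 10 libraries. It also had the lowest enteroendocrine marker sum, 94.81 cpm against 161.8 to 265.8 cpm in the other GUCY2Cmed libraries. The part of either in these low values was not tested. The GUCY2Cmed library of mouse 12 was low for Pik3r5 (0.288 cpm, next lowest 0.770 cpm), and that of mouse 2 for Plcb4 (0.749 cpm, next lowest 1.05 cpm).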

How the results depend on the processing

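Against 9 members called higher and 4 called lower, edgeR with the replicate block called 4 and 2, a filter of at least 10 counts in every library 3 and 2, and the 3 libraries low in Slc17a7, a choice made after seeing the data, 10 and 1. The shares of all genes in these 3 fits were 8.24% and 4.96%, 14.2% and 9.05%, and 8.81% and 6.5%. The last fit has a single GUCY2Cmed library, assumed to vary like the GUCY2Chi libraries and chosen where several members are lowest, so its calls support nothing. The forebrain covariate called 14 higher (16.9% of all genes), a threshold of 0.05 called 16 higher (21.4%), and no filter called 2 lower (3.96%) and library size alone 1 lower (3.55%), so the share of all genes moved as well. Leaving out each library in turn gave 5 to 11 higher and 0 to 4 lower. The shares of all genes in those fits were 10.6% to 16.5% higher and 3.32% to 10.4% lower. For the neighbouring genes, 11 higher and 3 lower, the block called 6 higher (8.24% of all genes) and the filter on every library 3 higher (14.2%). Without GUCY2Chi of mice 12 and 15 the count of neighbouring genes lower was 5 (14.4% of all genes). Leaving out each library gave 9 to 10 of them higher and 3 to 4 lower, against the same ranges of all genes as for the members. Members whose groups did not overlap numbered 18, and 18 to 21 without each library. With all libraries, 16.7% of all genes had GUCY2Chi wholly above and 13.2% wholly below. The shares of all genes without each library are not given here. Beyond the fewer genes tested or fewer libraries these settings use, the cause of each change was not tested.

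Pairing by mouse through limma-voom with a replicate block called 7 members higher (11.6% of all genes) and 3 lower (8.8%). The edgeR block changed no call of a named gene beyond those given in the report. No called gene reversed its direction. Among genes not called, Gnal was 0.061 with library size alone. Rgs10 was -0.044 with the replicate block, -0.79 with the covariate, -0.75 without GUCY2Chi of mice 12 and 15, and -0.44 to 0.46 where a single library was left out. Rgs19 was -0.046 with the covariate, -0.19 without GUCY2Chi of mice 12 and 15, and -0.0056 to 0.91 without single libraries. Rgs7bp was -0.27 by limma-voom, -0.57 and -0.18 with the block in edgeR and limma-voom, -1.40 with the covariate, -1.25 without GUCY2Chi of mice 12 and 15, and -0.81 to 0.52 without single libraries. Pdcl was -0.010 by limma-voom, -0.0073 and -0.0041 with the block in the 2 tools, and -0.11 to 0.14 without single libraries. Ric8a was 0.0058 with upper-quartile factors, 0.23 with library size alone, 0.070 with the filter on every library, 0.47 in the low-Slc17a7 libraries, 0.052 without GUCY2Chi of mice 12 and 15, and -0.13 to 0.053 without single libraries. Grk6 was -0.34 in the low-Slc17a7 libraries, and Axin1 was -0.042 to 0.29 without single libraries. Genes near 1 cpm, such as Rgs16, Rgs11 and Rgs22, rest on few counts, which limits their fold changes.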
